A study of Homo sapiens with 6 samples.

Results

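The SR and hnRNP splicing factor genes were followed in U-2 OS cells, a human osteosarcoma line, that were left untreated or had received 4 Gy of ionizing radiation (IR) 24 h before RNA extraction. Members were the protein-coding genes whose symbol begins with SRSF or HNRNP, together with TRA2A and TRA2B, which gave 41 of the 21447 genes that the transcripts could be assigned to. Of these, 14 were SRSF or TRA2 genes and 27 were HNRNP genes. Each group held 3 RNA libraries, made with an mRNA kit per the labels and a total RNA kit per the study's methods, which bears on how many unspliced transcripts they hold. The labels name no other agent and no edited allele in either group. The study's methods call the 3 samples of a group independent, but neither they nor the labels name separate cultures, so p-values measure the spread between these libraries, which may be technical.

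SR proteins carry RNA recognition motifs and a domain rich in arginine and serine, bind exonic enhancers and help the spliceosome to define exons. TRA2A and TRA2B are related proteins that act in the same way. The hnRNP proteins coat nascent transcripts, often silence splice sites and also act in export, stability and translation of messenger RNA. Many of these genes limit their own product by splicing in an exon with a premature stop codon, or by splicing an intron behind the normal stop codon. Such transcripts are substrates of nonsense-mediated decay (NMD), and others retain an intron and can stay in the nucleus. The split of a member's reads between coding, NMD and intron-retaining transcripts is therefore described beside its total.

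Libraries held 18573309 to 22953834 estimated counts, except IR replicate 3 with 45308792. That library also stood apart from IR replicates 1 and 2, with a chi-square statistic per gene of 29.1 and 32.2 against 3.44 to 9.15 for the other pairs within a group. The statistic is taken on raw counts and can rise with depth, and the part of depth in it was not tested. Where leaving IR replicate 3 out ended a call or moved a value given here by over 1.5 times, the value without it is also given. CDKN1A, the p53 target that encodes the cell cycle inhibitor p21, had 122, 124 and 120.3 counts per 1000000 (CPM) in the untreated libraries and 322, 341 and 389.8 CPM after IR (log2 fold change 1.53, SE 0.08, adjusted p = 2.83e-05). Of the mesenchymal markers, VIM, SPARC and COL1A1 were at 1464 to 3507 CPM in every library and COL1A2 was at 0.977 to 2.14 CPM. Of the osteoblast genes, RUNX2 had 11.3 to 16.1 CPM and was lower after IR, ALPL had 1.70 to 4.95 CPM and was higher, and SP7 and BGLAP were at 0 and at most 0.241 CPM. Of 5 tested markers of other cell types, KRT8, KRT18 and CDH1 rose after IR. The summed level of all 7 such markers was 306 to 311 CPM in the untreated libraries and 370.4 to 450.3 CPM after IR, with CD3E at 0 throughout, and the part of this shift in the results was not tested. In bulk RNA, fewer cells that express a gene and less of its RNA per cell cannot be told apart.

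Altogether, 35 of the 41 members passed the filter on low counts, and 6 did not. SRSF12, an SR protein gene, had 0.168 to 0.400 CPM across the libraries, and HNRNPCL1, HNRNPCL2, HNRNPCL3, HNRNPCL4 and HNRNPA1L3, copies of HNRNPC and HNRNPA1, were at or near 0. The most abundant members per transcript length were HNRNPA1 with a mean of 1479 transcripts per 1000000 (TPM), HNRNPA2B1 with 1449 TPM and HNRNPC with 1185 TPM. All members together made up 1.36% to 1.51% of the gene counts of an untreated library and 1.21% to 1.30% after IR.

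After IR, 10 of the 35 tested members were lower and 0 were higher at an adjusted p-value below 0.05 (edgeR quasi-likelihood test with Benjamini–Hochberg adjustment). Over all 14322 tested genes, 14.5% were lower and 15.5% were higher. At an unadjusted p-value below 0.05, 15 members were lower, against 20.0% of all genes, and 0 were higher, against 22.1%, and DESeq2 called 15 members lower, against 14.9% of all genes, and 0 higher, against 15.2%. The log2 fold change was below 0 for 31 of the 35 members, with a median of -0.15 against 0.01 over all genes. The changes were small, and the largest, of SRSF10, was a level that fell by 25.6%. All 3 IR libraries lay below all 3 untreated libraries in CPM for 19 members, a pattern met by 23.3% of all genes, and above them for 0 members, against 23.8% of all genes.

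**Figure D1:**
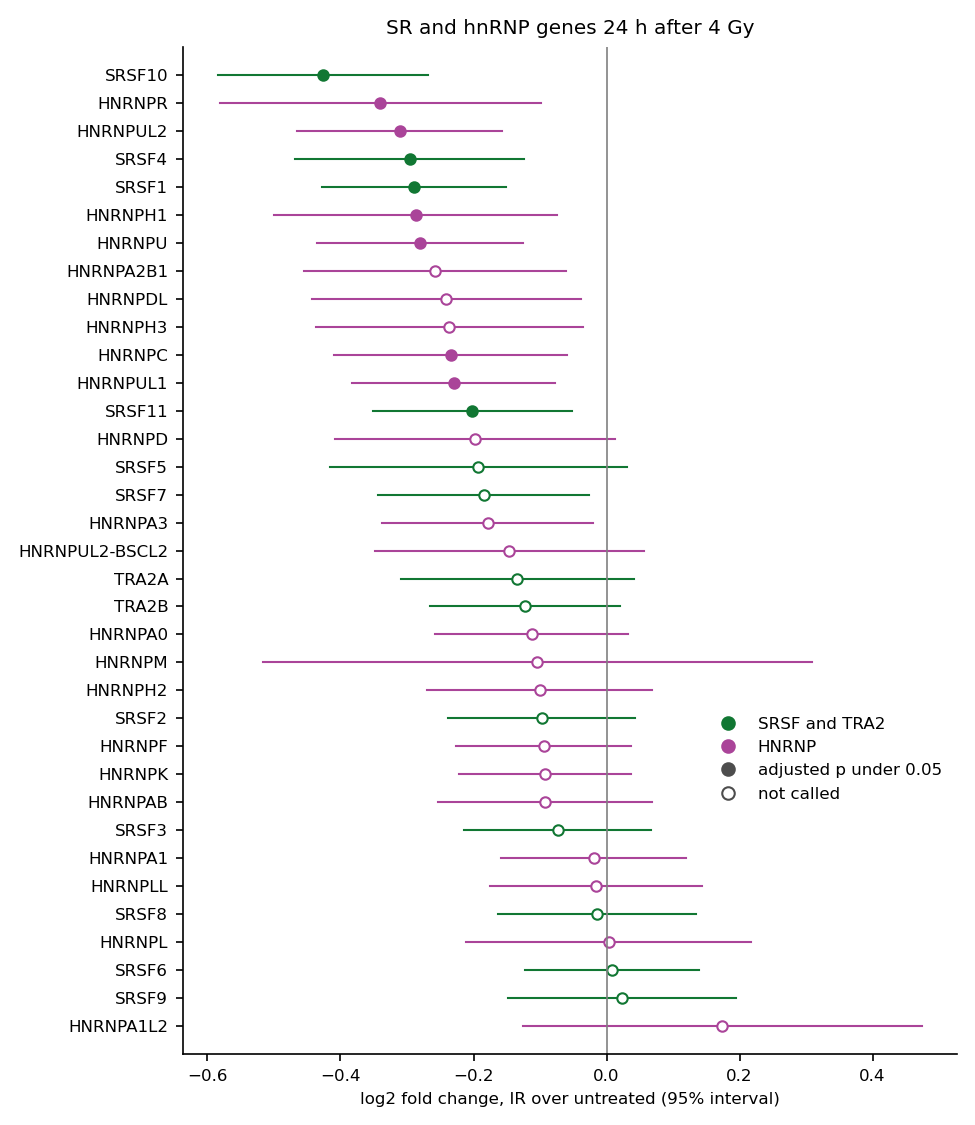
Log2 fold change of IR over untreated libraries with its 95% confidence interval for the 35 tested members, ordered by size, with filled points for an adjusted p-value below 0.05. The 10 filled points lie between -0.43 and -0.20, and the points above 0 are HNRNPL, SRSF6, SRSF9 and HNRNPA1L2, each with an interval that includes 0.

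Among the SRSF and TRA2 genes, 4 of 13 tested fell, namely SRSF10, SRSF1, SRSF4 and SRSF11. SRSF10 encodes an SR protein that represses splicing when dephosphorylated, for example after heat shock. It had 175, 185 and 185 CPM in the untreated libraries and 146, 133 and 127 CPM after IR. The groups did not overlap, and the log2 fold change was -0.43 (SE 0.07, adjusted p = 0.00241). SRSF1, the founding SR protein and a known proto-oncogene product, had 529, 522 and 562 CPM before and 455, 433 and 432 CPM after IR. Every IR library was again below every untreated library, with a log2 fold change of -0.29 (SE 0.06, adjusted p = 0.00748). SRSF4, a large SR protein with a long arginine- and serine-rich tail, had 119.5, 118 and 118 CPM against 97.9, 105 and 86.7 CPM. The untreated libraries of SRSF4 were nearly equal and the IR libraries were spread below them (log2 fold change -0.30, SE 0.08, adjusted p = 0.0174). SRSF11, an SR protein that acts at 3′ splice sites, changed the least of the called members, by -0.20 on the log2 scale (SE 0.07, adjusted p = 0.0459), with 204 to 216 CPM before and 169 to 192 CPM after IR.

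The other 9 tested SR genes were not called. SRSF6 and SRSF9 had log2 fold changes of 0.01 and 0.02, with intervals of -0.12 to 0.14 and -0.15 to 0.19, and SRSF3 had -0.07 with an interval of -0.21 to 0.07. A change of the size measured for SRSF10 therefore lay outside the intervals of these members. SRSF8 had -0.01 with an interval of -0.16 to 0.13. SRSF2, SRSF5, SRSF7, TRA2A and TRA2B had values from -0.19 to -0.10, and their intervals included 0 except that of SRSF7 (-0.34 to -0.03).

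Among the HNRNP genes, 6 of 22 tested fell, and these included HNRNPU and its relatives HNRNPUL1 and HNRNPUL2. HNRNPU, also known as SAF-A, a nuclear matrix protein that binds RNA and chromatin, had 912, 906 and 997 CPM in the untreated libraries and 815, 777 and 726 CPM after IR. The groups were separate, and the log2 fold change was -0.28 (SE 0.07, adjusted p = 0.0143). HNRNPUL2, a relative that is recruited to DNA breaks, had 89.5, 86.1 and 95.9 CPM before and 76.7, 72.1 and 70.3 CPM after IR, a log2 fold change of -0.31 (SE 0.07, adjusted p = 0.00898). HNRNPUL1, which has been described in the same context, had 513, 530.4 and 498 CPM against 446, 464 and 405 CPM (log2 fold change -0.23, SE 0.07, adjusted p = 0.0304). In none of the 3 did an IR library reach the lowest untreated library. The readthrough gene HNRNPUL2-BSCL2, which shares exons with HNRNPUL2 and also overlaps BSCL2 on the same strand, was not called (log2 fold change -0.15, adjusted p = 0.247). The assignment of reads between these genes is uncertain.

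HNRNPR, a component of messenger ribonucleoproteins, HNRNPH1, which binds runs of G, and HNRNPC, which binds runs of U and measures the length of nascent transcripts, also fell. Their log2 fold changes were -0.34 (SE 0.11, adjusted p = 0.0388), -0.29 (SE 0.10, adjusted p = 0.0456) and -0.23 (SE 0.08, adjusted p = 0.0470). HNRNPC had 821, 777 and 825 CPM before and 697, 749.7 and 613 CPM after IR. In all 3 genes IR replicate 3 was the lowest library. Without it the log2 fold change was -0.20 for HNRNPR, which was still called, and -0.18 for HNRNPH1, -0.16 for HNRNPC and -0.15 for SRSF11, which were no longer called. HNRNPA2B1, which binds purine-rich RNA and takes part in RNA transport, had 2211, 2125 and 2507 CPM against 2028, 2002 and 1692 CPM. Its groups did not overlap, but the log2 fold change of -0.26 (SE 0.09, adjusted p = 0.0505) just missed the threshold. HNRNPA1, the best-known splicing silencer of the family and the most abundant member, had 1394, 1290.3 and 1415 CPM before and 1321, 1345 and 1377 CPM after IR. Its groups overlapped, with a log2 fold change of -0.02 and an interval of -0.16 to 0.12, and of -0.03 without IR replicate 3. The remaining HNRNP genes were not called and had log2 fold changes from -0.24 (HNRNPDL) to 0.17 (HNRNPA1L2, a gene of under 10 CPM).

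**Figure D2:**
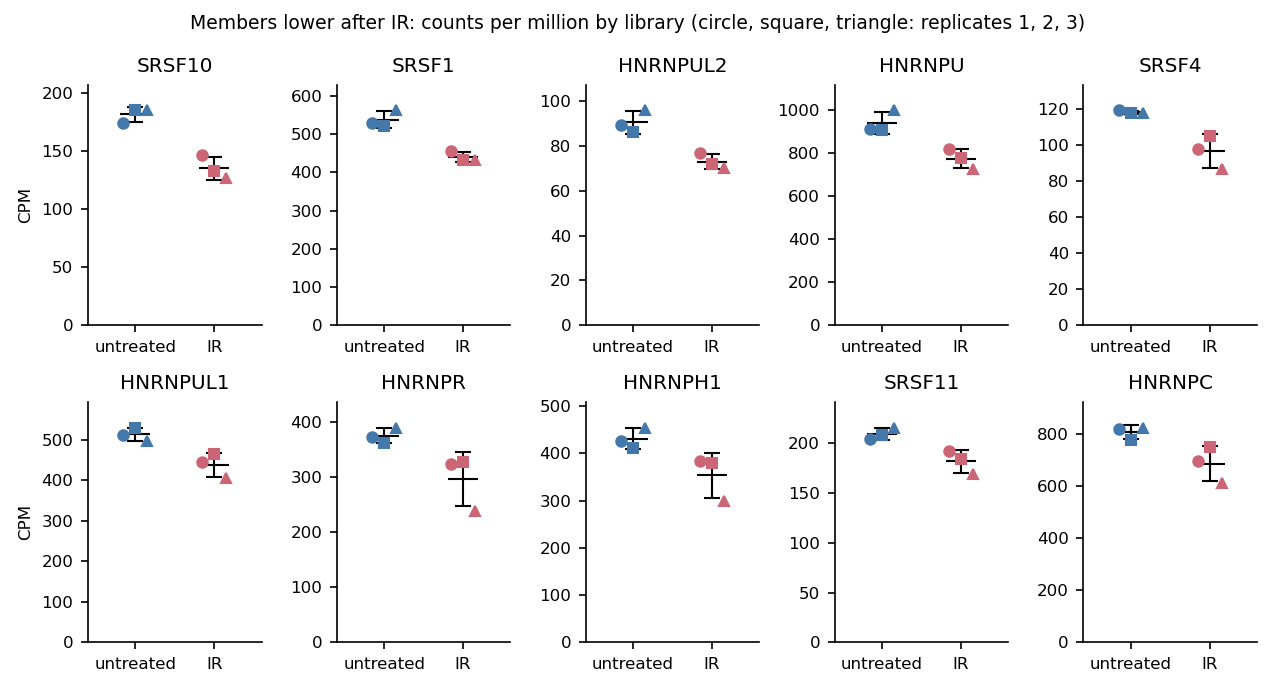
CPM of the 10 members that were lower after IR, in each untreated library (blue) and each IR library (red), with the mean and SD of the 3 libraries in black and the y axis from 0. In each panel the 3 IR libraries lie below the 3 untreated libraries, and the distance relative to the level is widest for SRSF10, from 175 to 185 CPM down to 127 to 146 CPM.

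Several genes named here lie on top of another gene. HNRNPU overlaps COX20 on the opposite strand, HNRNPUL1 overlaps TGFB1, HNRNPA2B1 overlaps CBX3 and NFE2L3, and SRSF1 overlaps 2 genes without a symbol, while SRSF10, SRSF4, SRSF11, HNRNPR, HNRNPH1 and HNRNPC overlap no other gene of the table. Whether reads were assigned by strand is not given in the sources used here. Reads from exon stretches that both genes of a pair share may therefore not be told apart. How much of their exons such pairs share was not measured.

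The number of members called depended on how the counts were treated. With the effective length of each gene as an offset, 2 members were lower (SRSF10 and HNRNPH1, against 6.11% of all genes), although 31 of 35 members had a fold change below 0 and the median was -0.19. From protein_coding transcripts alone 3 were lower (SRSF10, SRSF1 and HNRNPUL2, against 10.6%). Leaving out untreated replicate 1, 2 or 3 left 4 members lower each time, against 8.85%, 8.57% and 10.5% of all genes. Without IR replicate 3, 8 members were lower (against 13.1% of all genes), 7 of them among the 10, and the fold change was below 0 for 34 of 35 members. SRSF10 was called under all 14 alternatives, with log2 fold changes from -0.58 to -0.27. SRSF1 and HNRNPUL2 were called under 13 of them, all but the length offset. HNRNPU was called under 11 of the 14, SRSF4 under 10 and HNRNPUL1 under 8. HNRNPR was called under 7, HNRNPH1 under 6, HNRNPC under 5 and SRSF11 under 4.

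**Figure D3:**
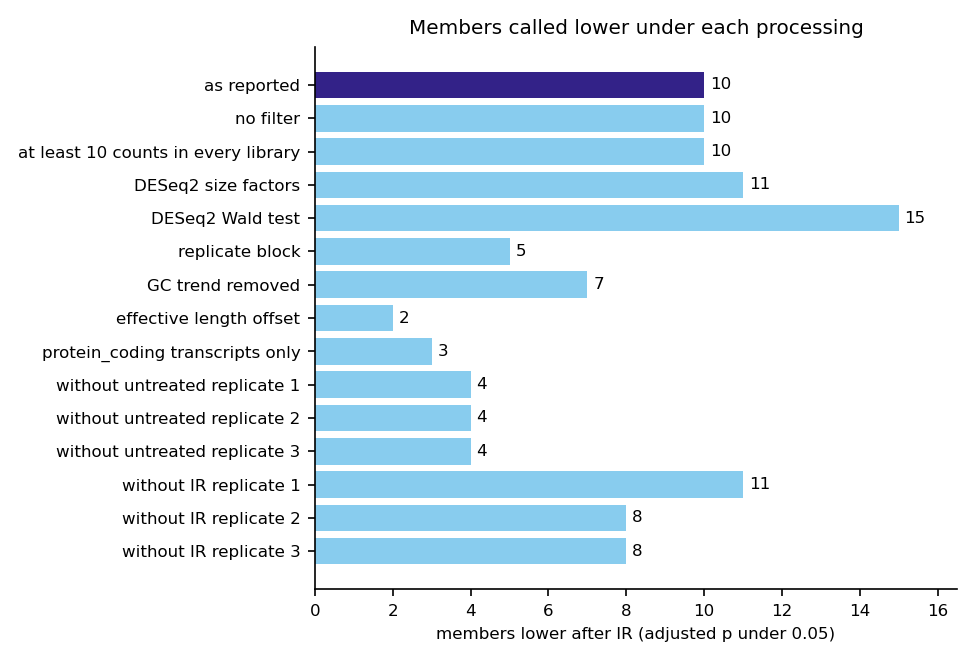
Number of members lower after IR at an adjusted p-value below 0.05 as reported (dark bar) and under each of 14 alternatives (light bars). The count was 10 as reported, 15 with the DESeq2 Wald test and 2 with the effective length offset.

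Base composition moved with the fold change. With all tested genes in 4 equal bins by GC content, the median log2 fold change was -0.16 in the lowest bin (31.0% to 42.7% GC), where 29.2% of genes were lower, and 0.26 in the highest bin, where 1.82% were lower. Members had a median GC content of 44.6%, against 48.6% over all genes, and 10, 17, 7 and 1 of them lay in the bins from low to high. Of these, 2, 5, 3 and 0 were lower, against 29.2%, 18.0%, 9.11% and 1.82% of all genes in the same bins. With the trend over GC content removed, 7 members were lower, against 12.6% of all genes, and 25 of 35 had a fold change below 0. SRSF10, SRSF1, SRSF4, HNRNPU, HNRNPUL1 and HNRNPUL2 were still called, and HNRNPUL2-BSCL2 was called in addition. HNRNPR, HNRNPH1, HNRNPC and SRSF11 were no longer called, with log2 fold changes of -0.25, -0.19, -0.17 and -0.04. The part of GC content in the fold changes was not tested further.

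The annotation holds 119 NMD and 116 retained_intron transcripts of members beside 268 protein_coding ones. In the untreated libraries 20.2% to 21.5% of the counts of the SRSF and TRA2 genes were on retained_intron transcripts, and 16.5% to 17.2% of the counts of the HNRNP genes were on NMD transcripts. Over all genes these classes held 4.74% to 4.90% and 4.77% to 5.20%. Most of the NMD counts of the HNRNP genes were those of HNRNPA2B1, with 1186 CPM on average in untreated cells.

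The stop codons of the leading NMD transcripts show in part what this class stands for. Of the 22 members tested for their NMD share, the most abundant NMD transcript had a stop codon of its own in 16, and in 7 of these the stop codon lay in an exon outside the exons of the canonical transcript, which is the arrangement of a poison exon. In the other 6 it ended at the stop codon of the canonical transcript, with 1 or 2 exon junctions behind it. Lower-ranked NMD transcripts could end differently from the leading one. In HNRNPDL the leading one held 40.4% of the NMD counts and had its own stop codon, and those with 35.8% and 23.8% ended at the canonical one. In SRSF1 the leading one ended at the canonical stop codon, and SRSF1-206, with 24.5%, did not. For some of the members on which the results below turn, the last 30 bases of the reading frame are given from the GENCODE release 44 transcript sequences (GRCh38), 5′ to 3′ in the sense of the messenger RNA, with the stop codon in capitals.
TRA2A-211: aaaaaattgaacagaagattggtcagaTAG
TRA2B-205: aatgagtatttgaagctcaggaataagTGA
SRSF10-215: ttcagatggctgattagtgaggggtgtTGA
SRSF1-206: gccttcgttgagttcgaggacccgcggTGA
SRSF1-207: cgtcatagcagatctcgctctcgtacaTAA
HNRNPK-207: cgtacagaccatattgagtatcagtgcTGA
HNRNPA2B1-203: gggggttatggtgggaggagccgatacTGA

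The TRA2A stretch lies at chr7:23522289-23522318 and the TRA2B stretch at chr3:185931772-185931801, both on the minus strand. Each ends within an exon that the canonical transcript skips, of 301 bases in TRA2A and 276 bases in TRA2B, after 59 and 38 codons where the canonical frames have 282 and 288. In SRSF10-215 (chr1:23978673-23978702, minus strand) the frame stops after 69 codons, against 262. SRSF1-206 (chr17:58006940-58006969, minus strand) stops after 65 codons, against 248, with 3 exon junctions behind the stop, whereas SRSF1-207 (chr17:58005406-58005435) ends at the normal SRSF1 stop codon with 2 junctions behind it. The start of the SRSF1-207 model is incomplete in the annotation. The HNRNPK-207 stretch spans a junction, and its stop codon lies at chr9:83974569-83974571 on the minus strand. HNRNPA2B1-203 (chr7:26192516-26192545, minus strand) encodes a full frame of 353 codons, against 341 in the canonical transcript, and uses the same stop codon, and it held 90.3% of the NMD counts of this gene, whose NMD share is therefore mostly one of transcripts with a complete reading frame.

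The NMD share of a member was taken as its counts on NMD transcripts over those on NMD and protein_coding transcripts. Of 28 members with both classes, 22 could be tested, and 0 had a higher and 0 a lower share after IR at an adjusted p-value below 0.05 in edgeR, and limma called 0 in either direction, against 0.161% of all genes. Over the 3736 genes tested, 0.375% had a higher and 0.642% a lower share. At an unadjusted p-value below 0.05, 2 members were lower, SRSF1 and SRSF10, against 15.4% of all genes in either direction. The change of the log2 ratio was above 0 in 12 members and below 0 in 10, with a median of 0.03 against -0.14 over all genes. All IR libraries were below all untreated libraries in 4 members (SRSF1, SRSF10, HNRNPU and HNRNPA2B1), against 11.1% of all genes, and above them in 0, against 5.89%. The standard errors of the log2 ratio ranged from 0.11 to 1.49, so that for many members only large shifts could have been detected.

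SRSF1 had an NMD share of 13.0%, 13.2% and 11.5% in the untreated libraries and of 10.8%, 9.08% and 10.3% after IR. Its log2 ratio of NMD to coding counts changed by -0.36 (SE 0.11, adjusted p = 0.154), and by -0.08 with the effective length as an offset (adjusted p = 0.557). As a share of TPM, which accounts for effective length, its NMD transcripts held 31.3% on average before and 30.1% after IR. SRSF10 had 3.94%, 4.73% and 7.31% before and 2.70%, 3.59% and 0.827% after IR, from 35.8 to 186 NMD counts per library (log2 ratio -1.23, SE 0.48, adjusted p = 0.251, and -0.81 without IR replicate 3). Both groups of libraries were separate in these 2 members, which also fell in total. In absolute terms SRSF1 lost counts in both classes, with its protein_coding transcripts at 452 ± 12.0 CPM before and 382 ± 7.03 CPM after IR and its NMD transcripts at 64.8 ± 3.99 and 42.6 ± 4.38 CPM (SD, n = 3).

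HNRNPU, with 41.1%, 39.0% and 39.3% before and 38.3%, 36.5% and 31.5% after IR, had a large NMD share that was slightly lower in each IR library (log2 ratio -0.26, SE 0.14, adjusted p = 0.410, and -0.14 without IR replicate 3). The other members of low p-value turned on IR replicate 3. TRA2A had 52.6%, 41.2% and 53.8% in the untreated libraries, 46.0% and 42.1% in IR replicates 1 and 2, and 16.1% in IR replicate 3 (log2 ratio -0.88, SE 0.47, adjusted p = 0.400, and -0.31 without IR replicate 3). HNRNPK, a poly(C)-binding protein that also acts in p53 responses, had 13.7%, 12.9% and 12.3% before and 13.3%, 10.6% and 2.04% after IR (log2 ratio -0.67, SE 0.52, adjusted p = 0.597, and -0.13 without IR replicate 3 or -1.17 without IR replicate 1). TRA2B went the other way in the same library, with 39.6%, 38.8% and 33.7% before and 35.7%, 36.9% and 52.2% after IR (log2 ratio 0.24, SE 0.24, adjusted p = 0.695), and without that library its ratio changed by -0.07. SRSF6 had 20.1% to 26.8% before and 21.8%, 20.8% and 41.9% after IR. In TRA2A, TRA2B and SRSF6, IR replicates 1 and 2 lay within the untreated range, and the departure came from IR replicate 3 alone. In HNRNPK, IR replicate 2 was also below every untreated library, and IR replicate 3 lay far lower.

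Among the 22 tested members, the highest mean shares were those of HNRNPA2B1, with 54.1%, 53.6% and 55.2% before and 52.5%, 52.9% and 49.2% after IR, and of TRA2A and TRA2B above. The lowest were those of HNRNPA3, at 0% to 0.988% across the 6 libraries, SRSF11, at 0% to 1.85%, and SRSF3, at 0.859% to 2.64%. SRSF3 is a small SR protein known for a poison exon, and few of its counts were assigned to transcripts of the NMD class. Whether its retained_intron transcripts carry that exon was not examined. Where transcripts of this class are degraded, a share gives what was left at extraction and not how often they were made by splicing. How far each of them is degraded was not measured.

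The same comparison for retained_intron transcripts was added after the data had been seen. Of 27 members with both classes, 23 could be tested, and 1, HNRNPU, had a lower share after IR, against 1.14% of the 5169 genes tested, while 0 had a higher share, against 0.89%. At an unadjusted p-value below 0.05, 5 members were lower and 0 higher, against 17.0% of all genes in either direction, and limma called 0 members, against 0.135% of all genes. The change was below 0 in 18 of the 23 members, with a median log2 ratio of -0.31 against -0.17 over all genes. All IR libraries were below all untreated ones in 8 members, against 13.8% of all genes, and above them in 3 (SRSF7, HNRNPD and HNRNPM, with shares under 3%), against 6.0%.

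HNRNPU had a retained_intron share of 16.7%, 16.7% and 16.3% in the untreated libraries and of 12.8%, 9.63% and 9.03% after IR. The untreated libraries were nearly equal, each IR library was lower, and the log2 ratio changed by -0.76 (SE 0.15, adjusted p = 0.0209). The call was lost without IR replicate 2, IR replicate 3, untreated replicate 1 or untreated replicate 2, each time with 0 members called, and over 10 alternatives the log2 ratio lay between -0.95 and -0.64. SRSF5 had the highest share, with 61.1%, 60.5% and 65.5% before and 52.0%, 49.4% and 31.9% after IR (log2 ratio -1.02, SE 0.30, adjusted p = 0.117). SRSF4 had 15.8%, 16.1% and 18.6% before and 12.3%, 7.25% and 11.4% after IR (log2 ratio -0.83, SE 0.22, adjusted p = 0.0762). In both the groups were separate but the test was not passed. SRSF11 had 50.8%, 52.6% and 48.3% before and 48.4%, 39.5% and 32.4% after IR, groups that touched at their edges (log2 ratio -0.63, SE 0.20, adjusted p = 0.134, and -0.38 without IR replicate 3).

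For SRSF5 both classes differed between the groups in opposite directions, while its summed counts overlapped. Its protein_coding transcripts were at 85.4, 90.6 and 96.6 CPM before and at 106, 108 and 119.99 CPM after IR. Its retained_intron transcripts were at 134, 139 and 183 CPM before and at 115, 105 and 56.2 CPM after IR. Tested on protein_coding transcripts alone, SRSF5 rose (log2 fold change 0.27, adjusted p = 0.0408, against 9.43% of all genes higher), while its summed counts had a log2 fold change of -0.19 (SE 0.10, adjusted p = 0.170, and -0.08 without IR replicate 3 or -0.12 without untreated replicate 3). SRSF11 likewise had a log2 fold change of 0.17 (adjusted p = 0.330) on protein_coding transcripts and fell as a whole gene. The assignment of reads to transcripts that share most of their exons is an estimate, whose error is not part of the deposited values used here.

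**Figure D4:**
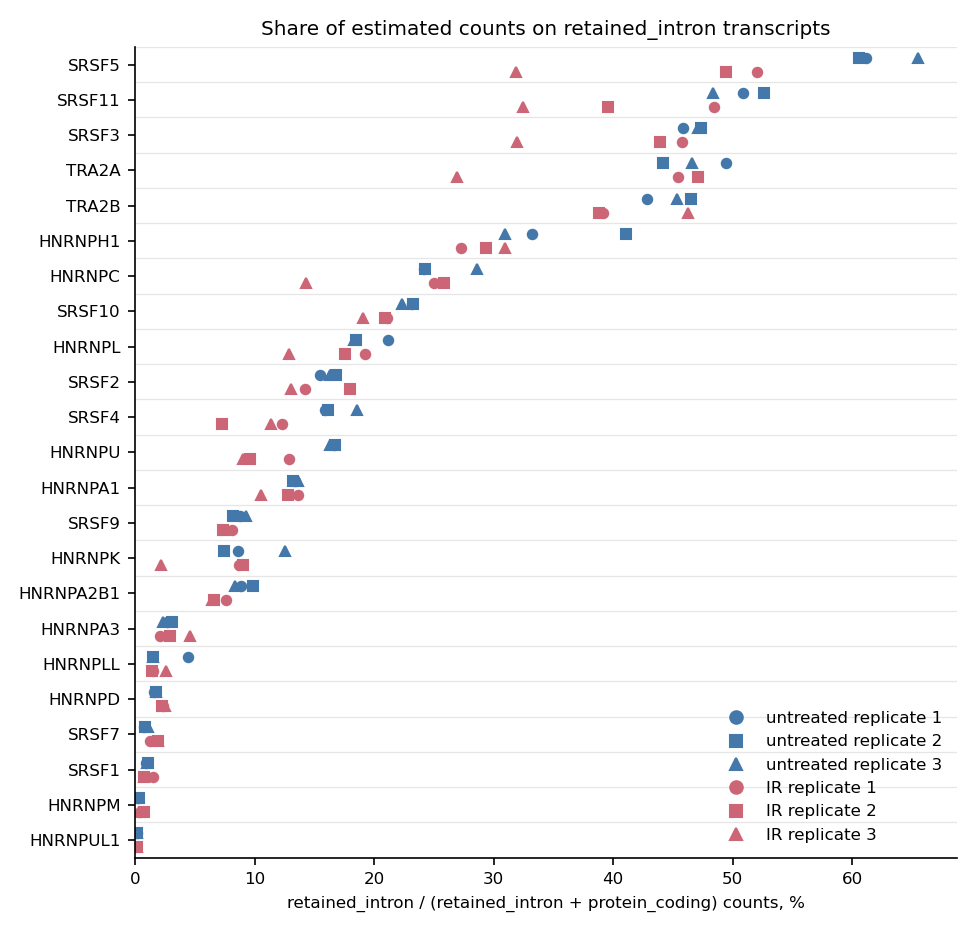
Share of retained_intron transcripts of the 23 tested members in each library, in percent of retained_intron and protein_coding counts, with untreated libraries in blue and IR libraries in red. All IR libraries lie to the left of all untreated libraries in 8 members: SRSF5, SRSF4, HNRNPU, HNRNPA2B1, SRSF3, HNRNPH1, SRSF10 and SRSF9. In SRSF3 and HNRNPH1 the groups are only just apart. IR replicate 3 lies lowest in SRSF5, SRSF11, SRSF3, TRA2A and HNRNPC, among others.

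Over all members together, retained_intron transcripts held 9.93%, 10.4% and 10.3% of counts in the untreated libraries and 9.33%, 9.11% and 7.18% after IR, and NMD transcripts 15.2%, 15.4% and 15.7% before and 14.8%, 14.5% and 13.5% after IR. Each IR library was below each untreated library in both. Within the SRSF and TRA2 genes the NMD part went the other way in IR replicate 3, with 10.1%, 9.91% and 9.64% before and 9.55%, 9.22% and 11.8% after IR. Over all genes, retained_intron transcripts held 4.74% to 4.90% before and 4.58% to 4.72% after IR. NMD transcripts held 4.77% to 5.20% before and 4.18% to 4.77% after IR. There too each IR library was below each untreated library. For NMD transcripts it was only just so, with 4.76686% in IR replicate 1 and 4.76694% in untreated replicate 2. IR replicate 3 was farthest from the untreated libraries in each of these sums.

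Other genes of the splicing machinery were read from the same fit, in which 14.5% of all genes were lower and 15.5% higher, with a median of 0.01. Of 8 tested kinases of SR proteins, 3 fell and 0 rose, with a median log2 fold change of -0.18. These were PRPF4B (-0.63, adjusted p = 0.00124), a kinase of the tri-snRNP, CLK1 (-0.36, adjusted p = 0.0103), which releases SR proteins from nuclear speckles, and DYRK1A (-0.37, adjusted p = 0.0222). Of 24 SR-related proteins, 11 fell and 2 rose, with a median of -0.29. SON, a scaffold of nuclear speckles, fell by 0.49 on the log2 scale (adjusted p = 0.00120), RSRP1 by 0.45 (adjusted p = 0.00205) and BCLAF1 by 0.48 (adjusted p = 0.00406), and those that rose were SCAF1 (0.37, adjusted p = 0.00827) and CLASRP (0.21, adjusted p = 0.0459).

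Among 7 hnRNP proteins under other symbols only SYNCRIP, a relative of HNRNPR, was called (-0.33, adjusted p = 0.0101). Of 28 other splicing regulators 10 fell and 0 rose, against 14.5% and 15.5% of all genes, with a median of -0.14. The lowest p-values were those of PTBP3 (-0.45), MBNL1 (-0.49) and QKI (-0.43). Of 46 core components of the spliceosome 7 fell, a share near that of all genes, and 1 rose, with a median of -0.06. AQR (-0.47), SF3B1 (-0.33), the branch-site factor, and DHX15 (-0.28) fell, and PRPF31, a U4/U6 protein, rose (0.21, adjusted p = 0.0449).

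Of 14 NMD factors, 4 fell and 0 rose, against 14.5% and 15.5% of all genes, with a median of -0.13. SMG1, the kinase that phosphorylates UPF1, had 278, 296 and 256 CPM before and 187, 161 and 157 CPM after IR, a log2 fold change of -0.72 (SE 0.08, adjusted p = 0.000613). UPF2, the bridge between UPF1 and the exon junction complex, had a log2 fold change of -0.42 (adjusted p = 0.0107), and CASC3, a part of that complex, one of -0.36 (adjusted p = 0.00423). No member passed the test of its NMD share in the same libraries, a test with standard errors of 0.11 to 1.49. Whether decay changed with the RNA of these factors was not tested.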

How the data were processed

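The authors trimmed reads with fastp and assigned them with kallisto to GENCODE release 37 transcripts (GRCh38). They deposited, per transcript and library, an estimated count (not normalized), a TPM value (scaled by effective length and library total), the length and the effective length. For the library kit the sources differ, mRNA per the labels and total RNA in the study's methods, and IR replicate 3 is the only library whose file name is marked, possibly as a repeat.

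Here 158591 of 161171 transcripts were matched to GENCODE release 44, which gave symbols and transcript classes, and held 98.2% to 98.4% of counts. Counts were summed per gene (or gene and class), rounded, filtered by filterByExpr, scaled by TMM and tested with edgeR 4.0.16 (glmQLFit and glmQLFTest; diffSpliceDGE for class ratios) in R 4.3.3, over all genes. P-values were adjusted by the Benjamini–Hochberg method, and calls needed an adjusted value below 0.05. CPM uses TMM-scaled totals. Standard errors were derived from the estimate and its F statistic, and intervals are at 95%. Alternatives used limma 3.58.1, DESeq2 1.42.0, other filters, a replicate block, a GC trend, the effective length and single libraries left out. An exact permutation test of 3 libraries against 3 cannot go below p = 0.1 (two-sided), so none is given. Fits were tested on simulated data.

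Members, gene lists and tests were chosen with earlier results of these data known. Values in every library (or, for the lowest NMD shares, their range) are given for the 6 called members of lowest p in each direction, the 6 of lowest p for the NMD share, the 3 most abundant and those with the 3 highest and lowest NMD shares, and other lists are named by up to 3 called genes of lowest p. HNRNPR, HNRNPH1, SRSF11, SRSF5, SRSF6, the other uncalled members with intervals, SCAF1, CLASRP and PRPF31 were named after their values were seen. 1 further called NMD factor and 1 transcript sequence are not reported here.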

Additional observations from a re-analysis of the deposited data

How the results depend on the processing

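The count of 10 lower members became 5 with a replicate block (against 11.3% of all genes), 2 with the effective length offset and 3 from protein_coding transcripts only. With 1 library left out it was 4 to 11. For the fits without IR replicate 1 (11 members) or IR replicate 2 (8 members), the share of all genes is not given here. The count of lower members stayed within 1.5 times with other filters, DESeq2 size factors, the DESeq2 Wald test (15) and the GC trend removed. The count of 0 higher members became 1 (SRSF5) from protein_coding transcripts only. For the NMD share, 0 members were called under each of 12 alternatives. The 1 member with a lower retained_intron share became 0 with limma, 0 with the replicate block, and 0 to 2 with 1 library left out, where SRSF11 joined HNRNPU without IR replicate 1. The replicate numbers did not pair the libraries: deviations of same-numbered libraries correlated at -0.03, 0.04 and -0.05 across genes, and not every library correlated best with its own number.

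The sign of the estimate turned for SRSF11 (0.17) and SRSF5 (0.27) from protein_coding transcripts only, for HNRNPA1 with the GC trend removed (0.066), with the length offset (0.032) and without untreated replicate 3 (-0.059 to 0.0069 over the libraries left out), and for the NMD ratio of TRA2B without IR replicate 3 (-0.074 to 0.41 likewise). The causes were not tested. With 3 libraries a group, at 18573309 or more counts each, the smallest change called as reported was that of SRSF11 (-0.20). It was called under 4 of 14 alternatives, and the larger changes of HNRNPA2B1 (-0.26), HNRNPDL (-0.24) and HNRNPH3 (-0.24) were not called as reported. Class ratios resting on few counts had standard errors of up to 1.49.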
